A study of Mus musculus with 11 samples.

Results

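Mitochondrial ribosomal protein genes encode, in the nucleus, the proteins of the ribosome that works inside mitochondria. They were taken as every protein-coding row of the count table whose symbol begins with Mrpl or Mrps followed by a digit, with repeated Ensembl identifiers dropped. This gave 78 genes of the 55487 gene identifiers in the table and of its 21936 protein-coding genes: 49 with a large subunit symbol (Mrpl) and 29 with a small subunit symbol (Mrps). RNA had been sequenced from mouse bone marrow-derived macrophages, which are primary cells grown from the marrow of C57BL/6J mice aged 2 to 5 months over 5 to 6 days in a differentiation medium. The treated cells, 4 libraries, had been given CYR61 at 0.5 µg/ml for 24 h. The 7 control libraries came from cells labelled with the same strain, age range and differentiation time, at 0 µg/ml. CYR61 (CCN1) is a matricellular protein that cells secrete and sense through integrins. The labels name no genetic change in either group and no vehicle for control cells, and give no animal or culture of origin for a library. Each p-value is thus set against the spread between libraries alone, and that spread may be technical.

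The mitochondrial ribosome translates the few mRNAs that mitochondrial DNA encodes, all of them for core subunits of the respiratory chain and the ATP synthase. Its large subunit joins amino acids and lets the new chain out through an exit tunnel, and its small subunit holds the mRNA and reads its codons. Many of its proteins have bacterial relatives, while others are found only in mitochondria. Macrophages change how much they use the respiratory chain when they are activated, so the supply of this ribosome is of interest in them.

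None of the 78 genes passed the main test for a change with CYR61, and their summed level differed, CYR61 minus control, by 2.81% with TMM scaling and by -0.334% with scaling by library size alone. Here 78 of 78 passed the filter on low counts, and edgeR's quasi-likelihood test with TMM scaling and a Benjamini-Hochberg adjusted p under 0.05 called 0 higher and 0 lower. Of all 15135 genes tested, the same rule called 7.96% in either direction, with 5.33% higher and 2.63% lower. At an unadjusted p under 0.05 the same edgeR test took 10 of the 78 (12.8%), 9 higher and 1 lower, against 20.4% of all genes tested. DESeq2 called 1 of them higher and 0 lower, against 9.30% of all genes in either direction, and limma-voom called 0, against 7.70%. With the counts scaled by library size alone, edgeR called 0 of the 78 higher and 1 lower, Mrps2, against 9.69% of all genes in either direction, 3.50% higher and 6.20% lower. All 78 of the 95% intervals with TMM lay within a 1.5-fold change in either direction and 74 lay within 1.3-fold, with bounds between -0.56 and 0.53 on the log2 scale.

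The libraries held 17390272 to 20760322 estimated counts with CYR61 and 14912123 to 21047654 in controls, and a single mitoribosomal gene had 37 to 949 counts in a library. The labelled cell type was checked on 8 macrophage markers, whose summed level was 24708 to 26922 CPM with CYR61 and 22338 to 23730 CPM in controls. Here 5 of the 8 were called higher, against 5.33% of all genes tested. Among them was Adgre1 (F4/80) at 918 ± 72.4 CPM with CYR61 against 744 ± 31.9 CPM in controls. Csf1r, the receptor for the growth factor of macrophages, was another, at 3271 ± 57.8 against 2992 ± 96.3 CPM (SD, n = 4 and 7). Summed markers of 8 of the 9 other cell types stayed at or under 2.12 CPM in every library, and Ly6g, Cd3e, Cd3g, Pax5, Igkc, Gzma, Ncr1 and Ms4a2 were at 0 in all. The endothelial list summed to 4.44 to 5.54 CPM with CYR61 and 4.88 to 6.68 CPM in controls, and the neutrophil list to 1.61 to 2.12 and 0.785 to 1.39 CPM. Of the 7 neutrophil markers 1 was tested, S100a8, and it was called higher. Ribosomal RNA took 2.47% of counts in the library labelled CYR61 replicate 4, against 0.26 to 0.591% in the other CYR61 libraries and 0.286 to 0.884% in controls. Without that library, 1 mitoribosomal gene (Mrpl52) was called higher and 0 lower, against 6.38% of all genes in either direction.

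Per kilobase of exon the 78 genes covered a wide range of levels. Their mean level ran between 1.17 and 42.7 CPM per kb with a median of 6.62, and the medians were 6.78 for Mrpl genes and 5.20 for Mrps genes. Mrps21, whose protein belongs to a bacterial small subunit family, was highest at 43.0 ± 2.32 CPM per kb with CYR61 and 42.6 ± 1.21 in controls (SD, n = 4 and 7). It stood apart from Mrpl34, the next, at 25.9 ± 1.46 and 24.4 ± 2.23 CPM per kb. Every other pair of neighbours in the order, 76 of 77, overlapped in the range of the 11 libraries. After Mrpl34 came Mrpl28, Mrps15 and Mrpl2 at a mean of 21.1, 20.7 and 19.1 CPM per kb over all libraries. At the low end stood Mrpl47, Mrpl23, Mrps10, Mrps35 and Mrps22 at 1.17, 1.37, 1.51, 1.55 and 1.71 CPM per kb. Exon lengths count every annotated exon of a gene, so a gene with a long exon that macrophages do not use has its level understated.

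The stretch of DNA around the start of 4 of these genes is printed here to show what lies there. RefSeq windows of 300 bases on GRCm38.p6, from 250 before to 50 after the annotated start, were matched by symbol for 69 of the 78 genes. Mrpl52 and Mrpl53 had the highest log2 fold changes, Mrpl55 had groups that did not overlap, and Mrps2 was called lower under another scaling. Capitals mark CCGGAAG (a match to the core recognised by ETS family factors), AAGATGG (a YY1 match) or the palindromic NRF1 consensus, each on either strand. The windows are chr14:54426659-54426958 for Mrpl52, chr6:83108858-83109157 for Mrpl53, chr11:59202236-59202535 for Mrpl55 and chr2:28467816-28468115 for Mrps2, all on the plus strand.
Mrpl52: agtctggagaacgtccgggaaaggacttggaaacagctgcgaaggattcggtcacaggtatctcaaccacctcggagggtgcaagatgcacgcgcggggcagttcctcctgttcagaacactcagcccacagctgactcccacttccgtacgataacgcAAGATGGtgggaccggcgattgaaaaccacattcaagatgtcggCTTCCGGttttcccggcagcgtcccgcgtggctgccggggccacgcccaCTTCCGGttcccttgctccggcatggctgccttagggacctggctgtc
Mrpl53: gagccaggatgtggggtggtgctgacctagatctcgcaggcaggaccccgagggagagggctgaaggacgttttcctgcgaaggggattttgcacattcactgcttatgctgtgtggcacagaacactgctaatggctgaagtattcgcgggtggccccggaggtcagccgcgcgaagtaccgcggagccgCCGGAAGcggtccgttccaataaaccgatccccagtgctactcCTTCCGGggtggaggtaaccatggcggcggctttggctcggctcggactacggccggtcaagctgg
Mrpl55: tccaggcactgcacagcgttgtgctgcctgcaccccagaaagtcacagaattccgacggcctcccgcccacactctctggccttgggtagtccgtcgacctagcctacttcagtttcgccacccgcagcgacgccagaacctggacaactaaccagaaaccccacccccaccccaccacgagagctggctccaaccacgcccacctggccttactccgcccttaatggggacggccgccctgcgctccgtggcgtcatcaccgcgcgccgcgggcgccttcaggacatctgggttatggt
Mrps2: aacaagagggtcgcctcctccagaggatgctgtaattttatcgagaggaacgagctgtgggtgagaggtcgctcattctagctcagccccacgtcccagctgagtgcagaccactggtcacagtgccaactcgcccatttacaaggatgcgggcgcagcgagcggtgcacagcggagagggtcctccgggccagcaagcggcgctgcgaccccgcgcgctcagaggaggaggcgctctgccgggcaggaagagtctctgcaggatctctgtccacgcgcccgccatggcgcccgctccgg
The Mrpl52 window has 2 copies of the ETS letters and 1 of the YY1 letters, the Mrpl53 window has 2 copies of the ETS letters, and the Mrpl55 and Mrps2 windows have none of the 3. Across the family the ETS letters were found in 25 of the 69 windows (36.2%), against 9.12% of all 27025 windows and 11.9% of the 17491 windows of protein-coding genes. The YY1 letters were in 13 (18.8%), against 6.48% of all windows and 6.37% of protein-coding windows. The NRF1 letters were in 3 (4.35%), against 0.977% of all and 1.32% of protein-coding windows. Letters for other common elements were nearer the background: CACGTG (E-box) in 5 windows (7.25%), against 7.24% of all, GGGCGG (GC box) in 34 (49.3%), against 35.9% of all and 46.3% of protein-coding windows, and CCAAT in 27 (39.1%), against 37.9%. These are letter matches on both strands of fixed windows, and where an ETS match runs on into a YY1 match the 2 share the letters AAG.

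Mrpl55 was the gene whose groups separated. Its protein is a large subunit component of the central protuberance, the part of the large subunit that faces the head of the small one. It had 8.43, 8.38, 8.33 and 7.91 CPM with CYR61, against a lowest, median and highest of 6.69, 7.07 and 7.67 CPM in controls. All 4 CYR61 libraries lay above all 7 control libraries. The log2 fold change was 0.22 ± 0.07 (SE), with an adjusted p of 0.0619 by edgeR with Benjamini-Hochberg adjustment, so it was not called. Without control replicate 7, its highest control library, it was 1 of 4 members called higher, beside Mrpl52, Mrpl27 and Mrps24, against 9.14% of all genes in either direction. With all libraries it was the 1 gene of 78 (1.28%) whose groups did not overlap, against 7.16% of all genes tested, of which 4.65% had CYR61 above and 2.50% below. Under library size scaling 0 of the 78 had groups that did not overlap, against 7.80% of all genes, with 2.77% above and 5.03% below. With that scaling CYR61 replicate 4 had 7.68 CPM of Mrpl55, just under the 7.71 CPM of control replicate 7.

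Mrpl52, another protein of the central protuberance and one found only in mitochondria, had the highest log2 fold change. It had 10.3, 12.6, 13.8 and 10.4 CPM with CYR61, against a lowest, median and highest of 8.07, 8.89 and 11.1 CPM in controls. CYR61 replicates 2 and 3 lay above every control, and replicates 1 and 4 lay inside the control range. The log2 fold change was 0.32 ± 0.10 (SE), 95% interval 0.11 to 0.53, with an adjusted p of 0.0625 by edgeR. It passed under 7 of the 23 alternative fits, including DESeq2 (adjusted p = 0.0365), no filter on low counts (0.0349) and protein-coding genes alone (0.0426), and its adjusted p over the edgeR, DESeq2 and limma-voom alternatives ran between 0.0345 and 0.236.

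Mrpl53, a mitochondrial protein at the base of the stalk to which translation factors bind, had 7.21, 6.95, 7.92 and 7.48 CPM with CYR61, against a lowest, median and highest of 4.79, 6.39 and 7.07 CPM in controls. In 3 of the 4 CYR61 libraries it was above every control library. The log2 fold change was 0.25 ± 0.10 (SE), adjusted p = 0.15 by edgeR. Its exons are shared for 88.0% of their length with Gm42688, a protein-coding gene on the same strand at 10.4 ± 1.2 CPM with CYR61 and 10.4 ± 0.92 CPM in controls (SD, n = 4 and 7), so how reads were divided between the 2 can set its count.

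Among Mrps genes the highest log2 fold changes belonged to both members placed at the channel where mRNA enters. Neither was called, and an effect of position was not tested. Mrps24 had 25.6, 25.9, 25.4 and 27.9 CPM with CYR61, against 20.6, 23.5 and 25.7 CPM (lowest, median, highest) in controls, and control replicate 7 alone reached the CYR61 range. Its log2 fold change was 0.17 ± 0.05 (SE), adjusted p = 0.0679 by edgeR. Mrps5 had 17.2, 15.8, 16.8 and 18.2 CPM with CYR61 and 14.2, 15.2 and 16.7 CPM in controls, with groups that overlapped and a log2 fold change of 0.16 (adjusted p = 0.117 by edgeR). Mrps12, at the centre where codons are read, averaged 14.1 ± 0.89 CPM with CYR61 and 13.0 ± 1.49 CPM in controls, with groups that overlapped and a log2 fold change of 0.11 (adjusted p = 0.516 by edgeR). Mrps24, Mrps5 and Mrps12, as well as Mrpl27, which had a log2 fold change of 0.20 and an adjusted p of 0.109 by edgeR, were picked for description after their values were seen.

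Mrps2 was the 1 gene of the family that any scaling of the full set of 11 libraries called lower in edgeR. Its protein is a bacterial-type component of the small subunit. It had 19.8, 21.3, 21.6 and 22.6 CPM with CYR61, against a lowest, median and highest of 21.8, 23.6 and 25.0 CPM in controls. CYR61 replicates 1 to 3 were below every control library and replicate 4 was within the control range. With TMM the log2 fold change was -0.13 ± 0.05 (SE), adjusted p = 0.148, and with library size alone it was -0.18, adjusted p = 0.0416, both by edgeR. Its adjusted p over all alternatives ran between 0.0416 and 0.312.

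**Figure D1:**
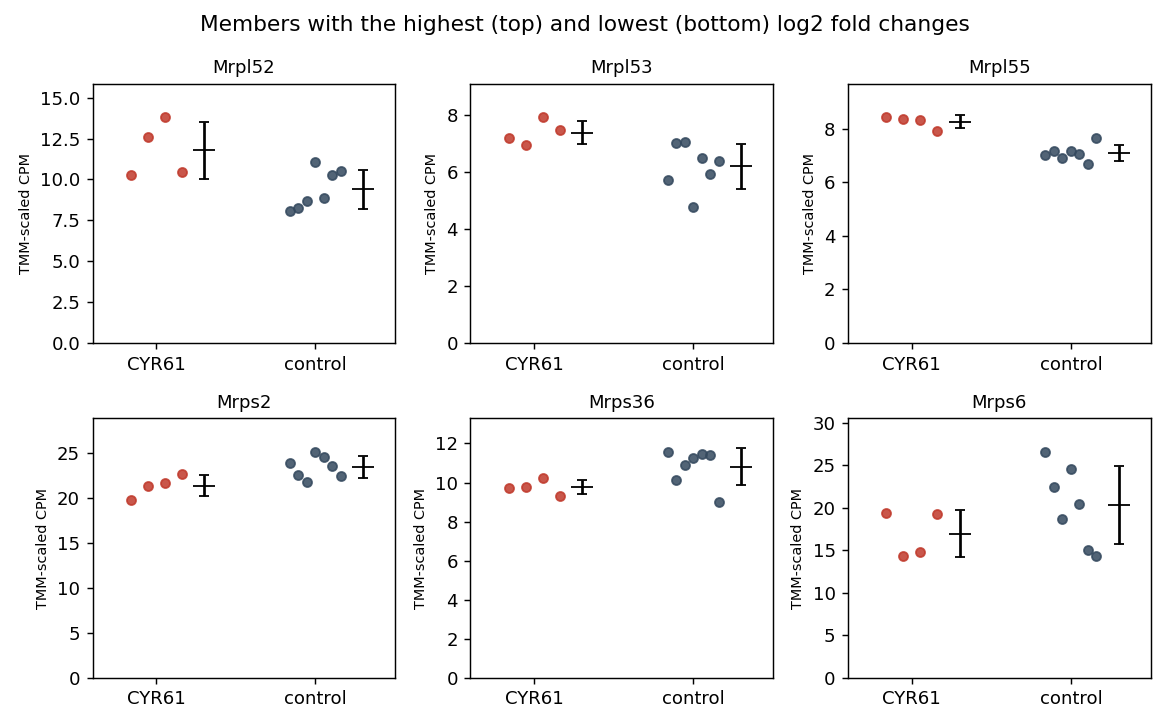
TMM-scaled CPM (vertical axes, each starting at 0) of the 3 genes with the highest log2 fold changes (top) and the 3 with the lowest (bottom), in 4 CYR61 libraries (left of each panel) and 7 control libraries (right); points are libraries and bars the mean with its SD. The CYR61 points of Mrpl55, between 7.91 and 8.43 CPM, are all above the control points, and in the other 5 panels the groups overlap.

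Mrps6 and Mrps36 completed the low end. Mrps36, which carries a ribosomal name but is now placed in the oxoglutarate dehydrogenase complex, had 9.70, 9.76, 10.2 and 9.33 CPM with CYR61, against 9.01, 11.3 and 11.6 CPM (lowest, median, highest) in controls, so that the CYR61 libraries lay inside the control range. Its log2 fold change was -0.15, adjusted p = 0.28 by edgeR. Mrps6, a bacterial-type small subunit protein, had 19.4, 14.3, 14.7 and 19.2 CPM with CYR61, against 14.4, 20.5 and 26.5 CPM in controls. Its values spread more than those of any other member in controls, with a coefficient of variation of 22.7% against a median of 7.10% over the 78 genes, and the log2 fold change of -0.25 had an adjusted p of 0.363 by edgeR. The replicate block and the same 8 libraries without it, which both leave out control replicates 5 to 7, called Mrps6 lower, with adjusted p-values of 0.0016 and 0.0224 by edgeR.

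Mrps6 moved between libraries together with Slc5a3, the gene of a sodium and myo-inositol cotransporter with which it shares 159 exon bases on the same strand, 10.4% of the exon length of Mrps6. Slc5a3 had 108.6, 80.0, 84.2 and 113.4 CPM with CYR61, against a lowest, median and highest of 78.01, 128.1 and 199.4 CPM in controls. The libraries highest in Slc5a3, control replicates 1 and 4, were the highest in Mrps6. The libraries lowest in Slc5a3, control replicate 7 and CYR61 replicate 2, were the lowest in Mrps6. Slc5a3 was not called either, with a log2 fold change of -0.47 and an adjusted p of 0.191 by edgeR. The part that shared exon bases have in the Mrps6 counts was not tested.

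**Figure D2:**
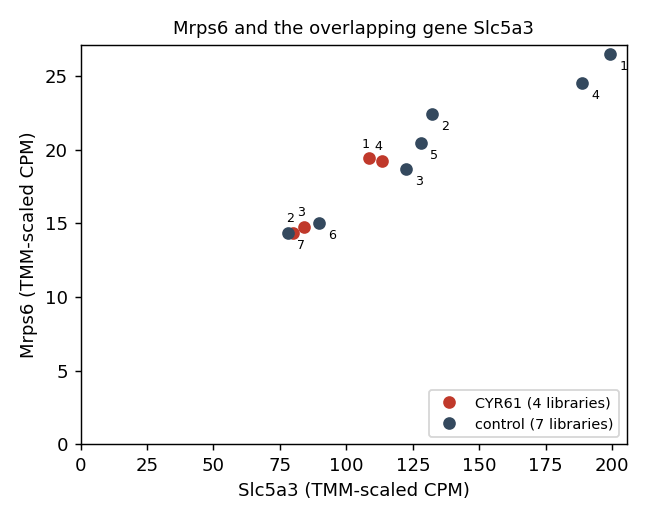
Mrps6 level (vertical, TMM-scaled CPM) against the level of Slc5a3 (horizontal, TMM-scaled CPM), 1 point a library with its replicate number, for 4 CYR61 libraries (red) and 7 control libraries (blue). Controls run between 14.4 and 26.5 CPM of Mrps6 and CYR61 libraries between 14.3 and 19.4, and libraries higher in Slc5a3 were in general higher in Mrps6.

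Shared exon bases were common in the family. In the GENCODE M21 annotation 33 of the 78 genes shared exon bases with another gene, and for 17 this was over 10% of their exon length. Beside Mrpl53, the largest shares were in Mrps25 (69.8%, with Nr2c2 on the opposite strand), Mrps34 (63.4%, with Mapk8ip3 on the opposite strand, and 37.0% with Nme3 on the same strand) and Mrpl19 (36.0%, with Gcfc2 on the opposite strand). Mrpl43 shared 33.4% with Twnk, the helicase of mitochondrial DNA, on the opposite strand, and Mrps24 shared 15.4% with Urgcp on the same strand. Mrpl46 and Mrps11, a large and a small subunit gene, overlapped each other by 173 bases on opposite strands. The labels do not say that the libraries keep the strand, so counts of such pairs cannot be told apart where they overlap, and no source used here gives the annotation behind the counts. A start site of a protein-coding gene on the opposite strand within 1000 bases, in the layout of a divergent gene pair, was annotated for 23 of the 78. Starts of noncoding genes were not counted.

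By subunit and position the log2 fold changes were small throughout. Of the 49 Mrpl genes 42 were above 0 with TMM, with a median log2 fold change of 0.049, and with library size scaling 25 of the 49 were above 0 with a median of 0.0046. Of the 29 Mrps genes 19 were above 0 with TMM (median 0.025), and with library size scaling 12 were (median -0.020). Whether the 2 subunits differed was not tested. Mrps30 and Mrps18a, whose proteins sit in the large subunit despite their names, had log2 fold changes of -0.05 each with TMM and -0.09 each with library size scaling. Mrps30 averaged 21.8 ± 1.69 CPM with CYR61 and 22.4 ± 1.57 CPM in controls, and Mrps18a 27.9 ± 1.89 and 28.9 ± 2.35 CPM (SD, n = 4 and 7), both differing by less than the spread between libraries.

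Among sites of the large subunit, 7 of the 8 central protuberance genes and 5 of the 5 stalk genes had log2 fold changes above 0 with TMM, against 4 of the 8 and 4 of the 5 with library size scaling. The 6 genes of the exit tunnel had 4 above 0 with TMM and 1 with library size scaling. Genes of bacterial families (48) had a median of 0.053 with TMM and 0.0081 with library size scaling, and genes of mitochondrial families (30) had 0.027 and -0.017. The latter count includes Mrps36, whose protein is now placed outside the ribosome. None of these groups held a gene that passed the main test.

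**Figure D3:**
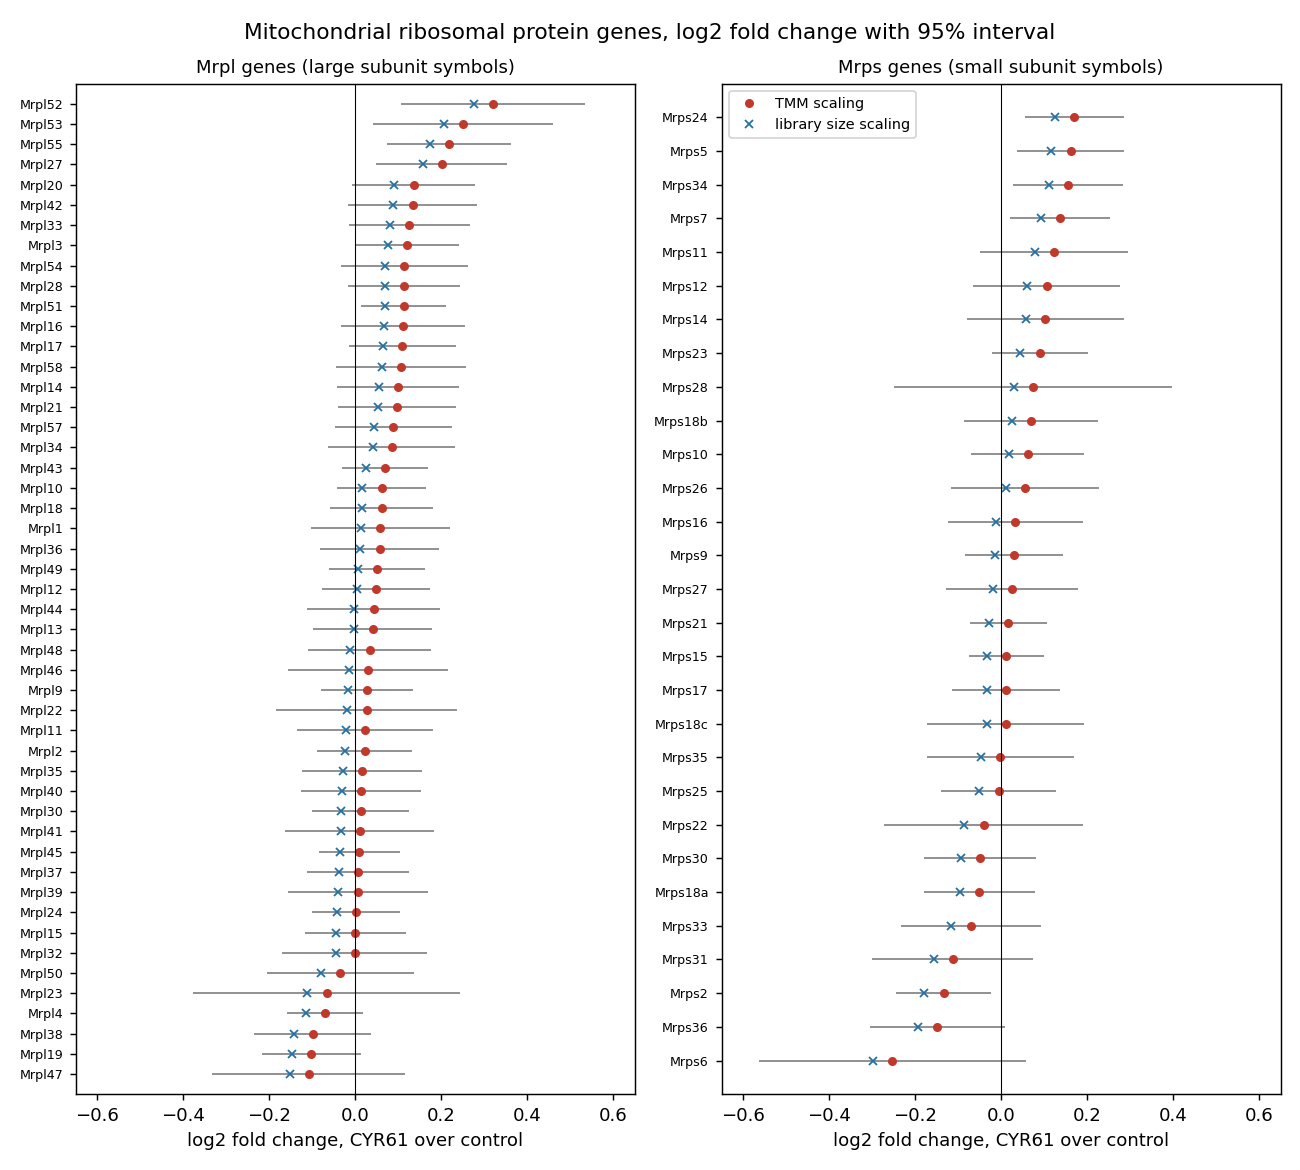
Log2 fold change, CYR61 over control (horizontal), of the 49 Mrpl genes (left) and 29 Mrps genes (right), with TMM scaling (red points, lines are 95% intervals of that fit) and with library size scaling (blue crosses). Mrpl52 is at the top with 0.32 and Mrps6 at the bottom with -0.25; the crosses sit to the left of the points by a nearly constant step, which puts 61 of the 78 genes above 0 with TMM and 37 with library size scaling.

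The sign of the family as a whole depended on how libraries were scaled. With TMM the median log2 fold change of the 78 was 0.037 and 61 of them (78.2%) were above 0, while all genes tested had a median of -0.0076 with 47.5% above 0. With library size alone the median of the 78 was -0.0071 and 37 (47.4%) were above 0, while all genes had a median of -0.052 with 32.9% above 0. The distance between the family's median and that of all genes was 0.0447 log2 units with TMM and 0.0452 with library size. The change of scaling moved each of the 78 by -0.0454 to -0.0438 log2 units. TMM factors were 0.971 to 0.993 in CYR61 libraries and 1.004 to 1.023 in control libraries, without overlap, so the scaling itself differed by group.

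**Figure D4:**
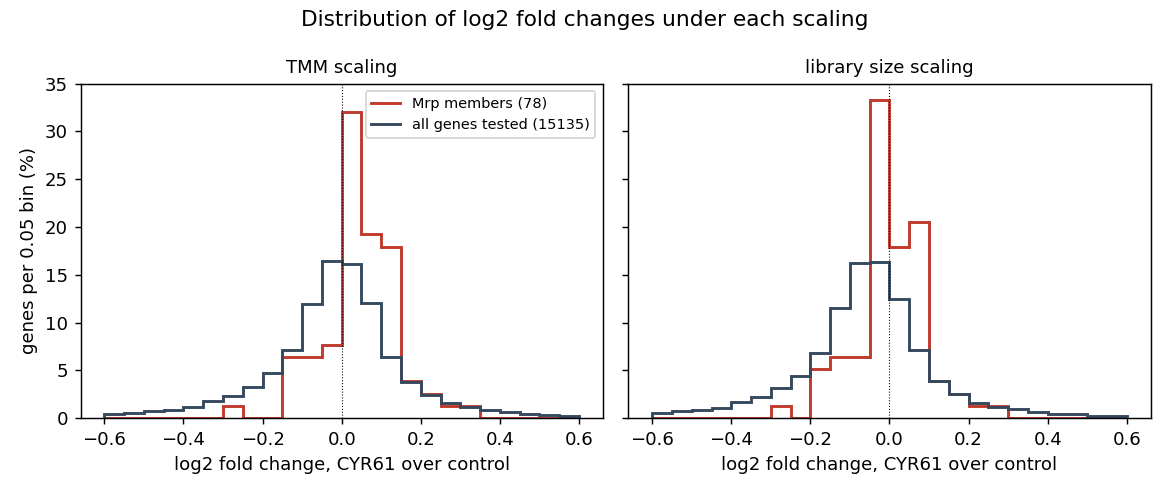
Share of genes (vertical, %) per 0.05-wide bin of log2 fold change, CYR61 over control (horizontal, shown from -0.6 to 0.6), for the 78 mitoribosomal genes (red) and all 15135 genes tested (blue), with TMM (left) and library size scaling (right). The median of the 78 is 0.037 with TMM and -0.0071 with library size scaling, above the median of all genes in both panels (-0.0076 and -0.052).

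The summed level gives the same picture per library. With TMM the 78 genes summed to 1333, 1352, 1378 and 1371 CPM with CYR61, against a lowest and highest of 1297 and 1352 CPM in controls, and averaged 1358 ± 20.4 and 1321 ± 18.04 CPM (SD, n = 4 and 7), a ratio of 1.03. CYR61 replicates 3 and 4 were above every control, and replicates 1 and 2 reached into the control range. With library size scaling the sums were 1332 ± 13.9 CPM with CYR61 and 1336 ± 16.7 CPM in controls, a ratio of 0.997, which is less than the spread. The family thus took 0.133 ± 0.001% of counts with CYR61 and 0.134 ± 0.002% in controls. The Mrpl genes summed to 857 ± 19.1 and 827 ± 14.8 CPM with TMM, the Mrps genes to 501 ± 7.88 and 494 ± 6.73 CPM, and the ratio of the large to the small subunit sum, which no scaling changes, was 1.71 ± 0.05 with CYR61 and 1.67 ± 0.03 in controls. In bulk RNA, fewer cells of a kind and less RNA per cell cannot be told apart.

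**Figure D5:**
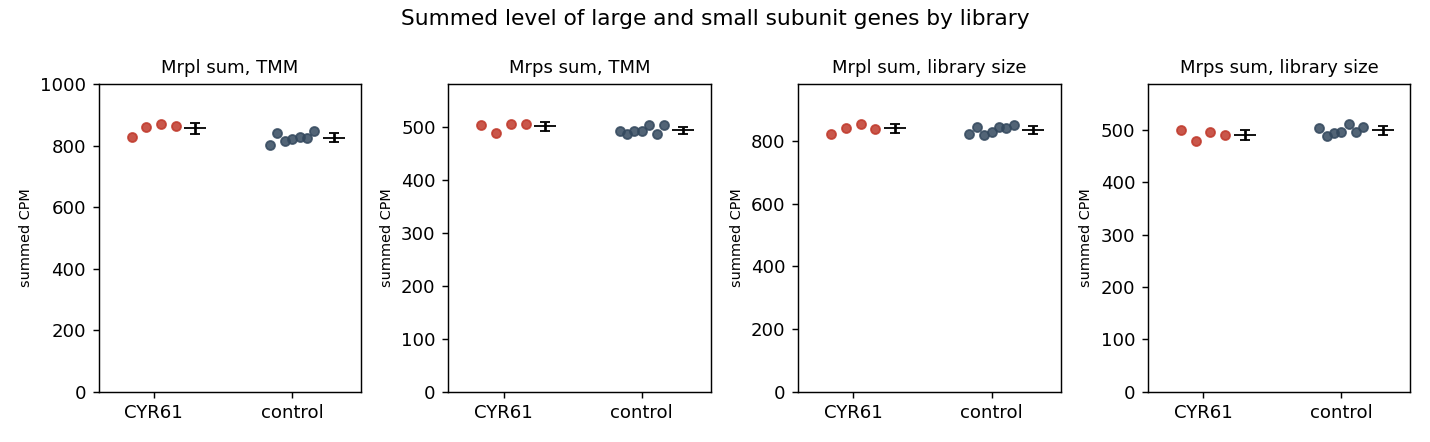
Summed CPM (vertical, axes starting at 0) of the Mrpl genes and the Mrps genes with TMM (left pair) and with library size scaling (right pair), in 4 CYR61 libraries and 7 control libraries; points are libraries and bars the mean with its SD. With TMM the Mrpl sum averages 857 CPM with CYR61 and 827 CPM in controls, and the groups overlap; with library size scaling the means are 840.3 and 836 CPM.

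The spread between replicate libraries was close to that of other genes. The members' median coefficient of variation was 6.70% over CYR61 libraries and 7.10% over controls, against 7.35% and 7.31% for the 6844 tested genes in the same range of CPM. Across the 11 libraries the median Pearson correlation over the 3003 pairs of members, each gene taken as its deviation from its group mean, was 0.04, and 54.4% of pairs were above 0. This is a description: the pairs share libraries and scaling, and no test was made.

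Genes that work with the mitochondrial ribosome were set beside it. Of 5 ribosomal proteins without an Mrp symbol, 30 assembly and rRNA modification factors, 17 translation factors, 20 aminoacyl-tRNA synthetases and 18 tested regulators of mitochondrial transcription and DNA, edgeR with Benjamini-Hochberg adjustment called 0 higher and 0 lower in every list, with 1, 1, 5, 3 and 3 genes at an unadjusted p under 0.05 (20.0, 3.33, 29.4, 15.0 and 16.7% of the lists, against 20.4% of all genes tested). The gene of lowest p in each list was as follows. Chchd1, a small subunit protein, averaged 10.97 ± 0.53 CPM with CYR61 and 9.81 ± 0.73 CPM in controls (adjusted p = 0.185 by edgeR). Mpv17l2, needed to assemble the ribosome, had 15.0, 14.3, 15.8 and 15.0 CPM with CYR61, against 11.8, 13.3 and 13.8 CPM (lowest, median, highest) in controls. Its groups did not overlap, as in 4.65% of all genes tested with CYR61 above, and its adjusted p was 0.0518 by edgeR. Tufm, the elongation factor that brings aminoacyl-tRNA, averaged 43.5 ± 2.38 and 39.5 ± 2.25 CPM (adjusted p = 0.0826 by edgeR). Lrpprc, of the list of translation factors, was picked after its values were seen. Its groups did not overlap either, with 57.5 to 58.5 CPM with CYR61 and 52.7 to 56.4 CPM in controls (adjusted p = 0.0907 by edgeR).

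Fars2, the phenylalanyl-tRNA synthetase of mitochondria, averaged 20.4 ± 1.2 CPM with CYR61 and 17.6 ± 1.63 CPM in controls (adjusted p = 0.0753 by edgeR). Myc, a transcription factor that drives ribosome genes in growing cells, averaged 1.56 ± 0.27 CPM with CYR61 and 2.21 ± 0.30 CPM in controls, with a log2 fold change of -0.50 that was not called with TMM (adjusted p = 0.0735) and was called lower with library size scaling (adjusted p = 0.0448), both by edgeR. Lars2, the leucyl-tRNA synthetase, was picked after its values were seen. It had 138, 197, 330.2 and 1531 CPM in CYR61 replicates 1 to 4, against 152 to 426 CPM in controls, and the library with 1531 CPM was the one in which ribosomal RNA took 2.47% of counts. It was not called (adjusted p = 0.14 by edgeR), and the part of ribosomal RNA reads in its counts was not tested.

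The mRNAs that this ribosome translates were lower in 1 case. Of the 13 mitochondrially encoded mRNAs, edgeR with TMM called 0 higher and 1 lower, against 7.96% of all genes in either direction and 2.63% lower. The gene called was mt-Nd6, which encodes a complex I subunit and is the 1 mRNA on the other strand of mitochondrial DNA. It had 124, 160, 169 and 154 CPM with CYR61, against 163 to 213 CPM in controls, with a log2 fold change of -0.32 ± 0.08 (SE) and an adjusted p of 0.0153 by edgeR; RNA from the opposite strand cannot be told apart from it where strand is not kept. CYR61 replicates 1, 2 and 4 were below every control and replicate 3 was within their range. All 13 had a log2 fold change below 0, with a median of -0.11. Mitochondrially encoded genes took 0.953% of counts in CYR61 replicate 1 and 1.32, 1.35 and 1.39% in CYR61 replicates 2 to 4, against 1.24 to 1.5% in controls, so that replicate 1 alone lay outside the control range. Without CYR61 replicate 1, 5 of the 13 were below 0 with a median of 0.0099, and mt-Nd6 was still called lower, with a log2 fold change of -0.23 and an adjusted p of 0.047 by edgeR.

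The authors' deposited table of their own comparison, made by a method that no source used here states, holds 13999 genes and all 78 members. At its adjusted p under 0.05 the authors' deposited table has 3 of the 78 higher and 0 lower, 3.85%, against 12.3% of all its genes. In the authors' deposited table these are Mrpl52 with a log2 fold change of 0.38 (adjusted p = 0.00282), Mrpl27 with 0.25 (0.00383) and Mrpl55 with 0.22 (0.0409). All 3 were above 0 and not called by edgeR with TMM.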

How the data were processed

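The main table deposited by the authors gives expected counts, that is estimated counts without normalization, by Ensembl identifier for 11 libraries. Per the labels' protocols, ribosomal RNA was removed from total RNA and cDNA was made with random primers. DRAGEN was used, per the submitters' processing notes; no source used here gives its version or role, the build or the annotation. The authors also deposited a comparison with log2 fold changes and log2 CPM, p-values, and scores (t, log odds, signed fold change), by a method likewise not given.

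Of 55774 rows, 287 repeats of an identifier were dropped. Rounded counts went into edgeR 4.0.16 under R 4.3.3 (filterByExpr, TMM, quasi-likelihood, no covariates, two-sided), adjusted by Benjamini-Hochberg over 15135 genes at 0.05; the biological coefficient of variation was 5.64%. TMM-scaled CPM are printed unless stated. For 46 of the 78 genes every count was whole, and 32 had at least 1 count that was not, as arises where reads are shared. Exon lengths and overlaps came from GENCODE M21 by Ensembl identifier, matched for all 78, and promoter windows from RefSeq (GRCm38.p6).

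Genes named are those called under either scaling, the 5 highest and 5 lowest per kb, the 3 highest and 3 lowest log2 fold changes at 1 CPM or more, Mrps30, Mrps18a, and from each related list its called genes or the gene of lowest p; others are marked where they stand. The members, the lists and the motif letters were chosen with earlier results of these data known. Alternatives were DESeq2 1.42.0, limma-voom (limma 3.58.1), other scalings and filters, the replicate number as a block, and leaving out each library. No 2 replicates agreed within sampling noise. The edgeR step was tested on simulated data. There it missed most changes of 1.15-fold, many of 1.25-fold and 1.5-fold, and some of 2-fold. An absent call by itself thus does not exclude a change of these sizes. For the mitoribosomal genes the limit on size comes from the 95% intervals, not from the absent calls.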

Additional observations from a re-analysis of the deposited data

Results flagged for a closer look

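A sample far from the others of its group was looked for in 54 groups of values, and chance flags about 1 in 20 groups. Tufm stood apart in CYR61 replicate 4 at 47.1 CPM, against 42.5 CPM in the nearest CYR61 library. The summed Mrps level stood apart in CYR61 replicate 2 at 489.4 CPM with TMM, against 503.6 CPM in the nearest.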

How the results depend on the processing

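The number of Mrp genes called higher was 0 with TMM, 1 with DESeq2, with no filter, with protein-coding genes alone and with the replicate block, and 2 with the same 8 libraries and no replicate block. Of all genes, 9.30% were called with DESeq2, 4.04% with no filter, 10.7% with protein-coding genes alone, 8.53% with the block and 8.57% with the 8 libraries. The number called lower was 0, and 1 with library size alone, the replicate block and the same 8 libraries. Leaving out 1 library gave 0 to 4 higher and 0 lower. Without control replicate 7, Mrpl27, Mrps24, Mrpl55 and Mrpl52 were called, 4 of the 78, against 9.14% of all genes, and without CYR61 replicate 1 Mrpl52 and Mrpl27 were, 2 of the 78, against 8.30%. For Mrpl genes 1 was higher with DESeq2, no filter, protein-coding genes alone and the 8 libraries, and 0 to 3 leaving out 1 library. For Mrps genes 1 was higher with the replicate block (Mrps24) and the 8 libraries, 0 to 1 leaving out 1 library, and 1 lower with library size (Mrps2), the block (Mrps6) and the 8 libraries (Mrps6). The median log2 fold change was -0.0071 and the ratio of sums 0.997 with library size alone. Assembly factors had 1 higher (Mpv17l2) with a 1 CPM filter on the mean and with protein-coding genes alone, and 0 to 1 leaving out 1 library. Synthetases had 1 higher with no filter, the block and the 8 libraries, 1 lower with library size (Vars2), and 0 to 1 in each direction leaving out 1 library. Regulators had 1 lower (Myc) with library size, and 0 to 1 leaving out 1 library. Mitochondrial mRNAs had 0 lower at an adjusted p under 0.01, and 0 where those genes are left out by construction. The other 427 values of these counts, medians and ratios stayed within 1.5 times the reported count or, for medians and ratios, within 1 SD between libraries. Signs turned for Mrps21 and Mrps15 with library size (-0.027 and -0.032) and upper quartile factors (-0.0012 and -0.0057), for Mrpl2 with library size (-0.023), and for Mrps35 with no filter (0.0037) and the replicate block (0.0019). Leaving out 1 library, log2 fold changes ran between -0.017 and 0.044 for Mrps21, -0.0095 and 0.031 for Mrps15, -0.15 and 0.024 for Mrpl23, -0.047 and 0.074 for Mrps35, and -0.15 and 0.043 for Mrps22. The cause was not tested. Same-numbered libraries did not deviate together (correlations of -0.034 to 0.034, and 1 of 4 CYR61 libraries was closest to its own number). This gave no sign that the replicate numbers pair the libraries, but with 4 CYR61 libraries it cannot exclude such pairing. The ratio of sums was not run for alternatives without a scaling of their own. The widest 95% interval, for Mrps28, the member of lowest mean level, with 3.43 CPM with CYR61 and 3.24 CPM in controls, spanned -0.25 to 0.40 on the log2 scale.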
